A study of Mus musculus with 6 samples.

Results

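The cathepsins described here are 10 lysosomal protease genes, Ctsz, Ctsa, Ctsb, Ctsc, Ctsd, Ctsh, Ctsl, Ctss, Ctsw and Ctso, followed in mouse CD4+ T cells that had begun to polarise into IL-9-producing Th9 cells. They were picked by symbol, and each of the 10 has an entry among the 11242 of the deposited gene-level table. The set was drawn up, with Ctsz at its head, when the difference between WT and Cul5 cKO cells in these same libraries was already known. That difference is therefore given for the 10 genes as a description. The fit across all genes includes them, and the calls it made are counted for completeness, with nothing read from them. The other tests concern other genes, or the division of counts among transcripts, which did not enter the choice of the 10. The lists of other genes were themselves drawn up with earlier results of these data known. Their calls between the genotypes are therefore not independent of that knowledge.

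RNA was sequenced from 3 WT and 3 Cul5 cKO cultures of spleen T cells from C57BL/6 mice. Cul5 encodes a cullin, the scaffold of a ubiquitin ligase, and the study asked how its loss alters Th9 gene expression. The Cul5 cKO mice carried Cul5fl/fl, with LoxP sites around exons 9 to 11, and CD4-Cre, which acts in all T cells from the thymus onwards, so loss of Cul5 preceded the culture. The WT mice were, by the study's general methods, Cul5fl/fl littermates without Cre, so that both groups carried the floxed alleles while only the Cul5 cKO group carried the recombinase. Both groups came from animals 8 to 10 weeks old. Naïve CD4+ cells, isolated on magnetic columns, were stimulated for 48 h through CD3 (antibody at 2 µg/ml) and CD28 (antibody at 1 µg/ml). The Th9 medium contained IL-4 at 20 ng/ml and TGF-β at 2.5 ng/ml, and IFN-γ was blocked with antibody at 10 µg/ml. Whether each library came from a separate mouse was not stated in the sources used here, so the tests measure the spread between these samples, which may be technical.

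Most cathepsins are cysteine proteases of the papain fold, made as inactive precursors, carried to the lysosome on mannose 6-phosphate receptors and activated there by acid and by proteolysis. Ctsd is an aspartic protease and Ctsa a serine carboxypeptidase. The family degrades proteins delivered to the lysosome, trims antigens and the invariant chain of MHC class II in antigen-presenting cells, and activates granule proteases of lymphocytes. Cystatins and some serpins hold the enzymes in check outside the lysosome.

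The feature that the cysteine members share is a catalytic cysteine, and its codon gives a compact view of how far apart the genes are. The 30 coding bases around it, from GENCODE transcripts of GRCm38, are given for the 8 cysteine cathepsins in the order of the results, with the codon of the catalytic cysteine in capitals.
Ctsz: cagtactgtggttccTGCtgggcccacggc
Ctsc: gaatcttgtggaagcTGCtactcatttgcc
Ctsb: ggctcctgcggctctTGTtgggcatttggg
Ctss: ggttcttgtggtgccTGCtgggctttcagt
Ctsl: ggccagtgcgggtctTGTtgggcgtttagc
Ctsh: ggggcctgtggcagcTGCtggactttctct
Ctsw: ggaagctgcaaatgcTGCtgggccatggca
Ctso: gagatgtgtggaggaTGCtgggccttcagc
The codon was TGC in 6 of the 8 and TGT in Ctsb and Ctsl. Laid over the Ctsz window without gaps, the windows of Ctss and Ctso matched at 19 of 30 bases, Ctsb at 17, Ctsh and Ctsl at 16, and Ctsc and Ctsw at 15. The Ctsz window lies within exon 2 on the minus strand, at chr2:174438184-174438213, and its cysteine is codon 94. The windows of Ctsb, Ctsc and Ctso run across an exon junction, and the other 5 lie in a single exon. Ctsa and Ctsd, which use another chemistry, held no match to the pattern.

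Depth was even except for 1 library. The estimated counts summed to between 23111689 and 23454552 in 5 samples and to 3944803 in WT replicate 3, in which 3 counts, taken as the floor of detection for counting error only, equal 0.759 CPM (counts scaled to the library total as adjusted by TMM) against 0.128 to 0.133 CPM elsewhere. Cul5 itself was at 64.4, 69.3 and 65.0 CPM in WT and at 10.6, 14.2 and 13.1 CPM in Cul5 cKO, so every Cul5 cKO sample was far below every WT sample. The 8 T cell markers summed to between 1929 and 2039 CPM in WT and between 1830 and 1956 CPM in Cul5 cKO. The quasi-likelihood test of edgeR, adjusted by the method of Benjamini and Hochberg, called 133 of 12925 genes tested between the genotypes at an adjusted p under 0.05. It called 0 of the 8 T cell markers. Of these, 4 (50%), Cd3d, Cd3e, Cd3g and Lck, were lower in every Cul5 cKO sample than in any WT sample. The same held for 13.5% of all genes tested.

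Ctsz and Ctsc were the cathepsins with more RNA in every Cul5 cKO sample by a wide gap, and the other 8 showed small or unsteady differences. Ctsz had a fitted fold of 1.67 and Ctsc of 1.43, Cul5 cKO over WT. All 10 genes passed the filter on low counts, and 2 of them were called, both higher, against 1.03% of all genes tested called, 0.611% called higher and 0.418% called lower. In 3 of the 10, Ctsz, Ctsc and Ctsd, the samples of the genotypes did not overlap in CPM, again all higher, against 27.5% of all genes in either direction and 14% higher. The contrast took part in the choice of the genes, so nothing is read from these counts. The median log2 fold change was 0.06 over the 10 genes, 0.03 without Ctsz and -0.0068 over all genes tested. These are bulk samples, in which more cells of one state and more RNA per cell cannot be told apart.

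**Figure D1:**
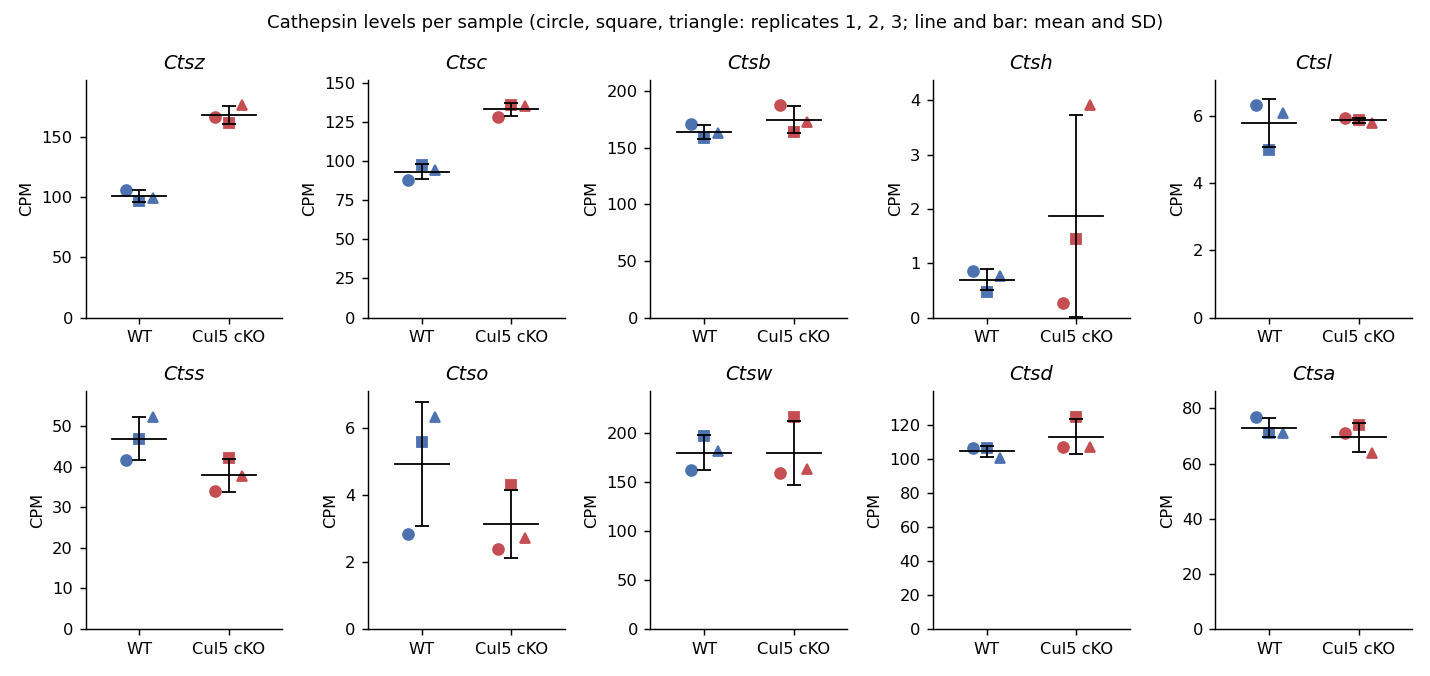
Level of each cathepsin in CPM (y axes, each from 0) in the 3 WT and 3 Cul5 cKO samples, with circles, squares and triangles for replicates 1, 2 and 3 and a line and bar for the mean and SD. Ctsz runs from 96.4 to 106 CPM in WT and from 162 to 176 CPM in Cul5 cKO, Ctsc is the other gene with a wide gap, and the Ctsh samples of Cul5 cKO spread from 0.261 to 3.91 CPM.

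Ctsz encodes cathepsin Z, also called cathepsin X, a carboxypeptidase that removes single residues from the C terminus of proteins and has a short propeptide that can bind integrins. The gene has a single transcript, Ctsz-201, and lies on the minus strand at chr2:174427493-174439039 (GRCm38), where it overlaps Nelfcd on the opposite strand. Its level was 106, 96.4 and 99.2 CPM in WT replicates 1, 2 and 3 and 166, 162 and 176 CPM in Cul5 cKO replicates 1, 2 and 3. The lowest Cul5 cKO sample was far above the highest WT sample, and the spread within either genotype was small beside the gap. The group means were 100.6 ± 4.98 CPM over the WT samples and 168 ± 7.33 CPM over the Cul5 cKO samples (SD, n = 3 each), and the log2 fold change was 0.74 (SE 0.07). None of the 1411 31-base words of its transcript occurs in a transcript of another gene, so its reads could not have been split with one.

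The deposited gene-level table holds log2 CPM that the authors normalized by TMM. It rests on the same libraries and on the contrast known when the genes were chosen, so it adds no support. There Ctsz was at 6.85, 6.71 and 6.71 in WT and 7.49, 7.45 and 7.57 in Cul5 cKO, a difference of 0.74 between the means. On the scale of length, Ctsz was at 117, 111 and 106 TPM in WT and 185, 178 and 189 TPM in Cul5 cKO (TPM scales each transcript's estimated count to its length and to the sample). With each sample left out in turn its log2 fold change lay between 0.71 and 0.79. The number of cathepsins called fell from 2 to 0 when replicate 2 or 3 of WT or replicate 3 of Cul5 cKO was left out, and to 1, Ctsz, when replicate 2 of Cul5 cKO was. The number of all genes called without these samples, in the same order, was 2, 2, 3 and 45.

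The 250 bases before the RefSeq start of Ctsz (GRCm38.p6, chr2:174439040-174439289, minus strand) are shown because Ctsz had the widest gap between the genotypes among the cathepsins. Capitals mark the matches, on either strand, to a GC box (GGGCGG) and to CCAAT among 6 motifs searched.
Ctsz promoter: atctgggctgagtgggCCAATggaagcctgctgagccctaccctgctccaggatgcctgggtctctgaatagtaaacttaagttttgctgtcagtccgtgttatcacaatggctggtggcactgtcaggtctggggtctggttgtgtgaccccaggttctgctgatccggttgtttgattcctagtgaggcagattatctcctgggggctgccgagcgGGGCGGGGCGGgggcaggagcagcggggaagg
The window held 2 overlapping GC boxes, at -32 and -27 from the start, and CCAAT at -234. It held no E-box CACGTG, no CLEAR sequence (the element of lysosomal genes bound by TFEB, searched as CACGTG between GT and AC), and neither TTCNNNGAA nor the same ends with 1 more N between them, the spacings bound by STAT factors. CACGTG lies inside the CLEAR sequence, so a match to the latter counts for both.

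Ctsc encodes cathepsin C, or dipeptidyl peptidase I, which takes pairs of residues from the N terminus of proteins and so activates granzymes and the serine proteases of granules. The gene lies on the plus strand at chr7:88278085-88310888. Its level was 88.0, 97.7 and 94.1 CPM in WT and 129, 136 and 135 CPM in Cul5 cKO. As with Ctsz, the 3 Cul5 cKO samples were close together and all above WT. The means were 93.3 ± 4.94 and 133 ± 4.04 CPM (SD, n = 3 each), and the log2 fold change was 0.51 (SE 0.07).

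On the other scales, which come from the same libraries and add no support, Ctsc showed a narrower gap. In the deposited table Ctsc was at 6.49, 6.74 and 6.87 log2 CPM in WT and 7.09, 7.10 and 7.19 in Cul5 cKO, a difference of 0.43. In TPM it was at 52.7, 65.5 and 68.3 in WT and 80.9, 80.8 and 84.1 in Cul5 cKO. The genotypes stayed apart on both scales, and its log2 fold change over all alternatives lay between 0.43 and 0.55. Only 0.604% of its 31-base words occur in other genes. The leading transcript, Ctsc-201, held 91.7%, 89.4% and 79.8% of its counts in WT and 89.3%, 89.1% and 86.9% in Cul5 cKO.

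The promoter window of Ctsc, the other cathepsin with a wide gap, is given for comparison (chr7:88277835-88278084, plus strand, capitals as above and also for TTCNNNGAA).
Ctsc promoter: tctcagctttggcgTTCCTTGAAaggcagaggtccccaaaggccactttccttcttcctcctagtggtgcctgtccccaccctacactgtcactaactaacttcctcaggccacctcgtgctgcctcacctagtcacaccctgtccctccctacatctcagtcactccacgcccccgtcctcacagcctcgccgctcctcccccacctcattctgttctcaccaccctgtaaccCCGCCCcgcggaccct
It held a GC box at -16, read on the opposite strand, and TTCNNNGAA at -236. The GC box is the one motif it shared with the Ctsz window, and 32.7% of 32851 promoter windows of the same length hold it. TTCNNNGAA occurs in 7.02% of them, the longer spacing in 5.85%, CCAAT in 33.8%, CACGTG in 6.02% and the CLEAR sequence in 0.24%. RefSeq windows were at hand for 7 of the 10 genes, and Ctsb, Ctsh and Ctsw had none. CACGTG was found in the windows of Ctsd (at -245 and -98), Ctsl (at -236) and the second of the Ctsa starts (at -12). The windows of Ctsl and of that Ctsa start lie inside the gene as GENCODE annotates it, and the Ctsd window does so in part. GC boxes were also found in the windows of Ctsd (at -204 and -117) and Ctss (at -55), and Ctso held CCAAT at -106. A match is a description of letters and not a binding site.

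**Figure D2:**
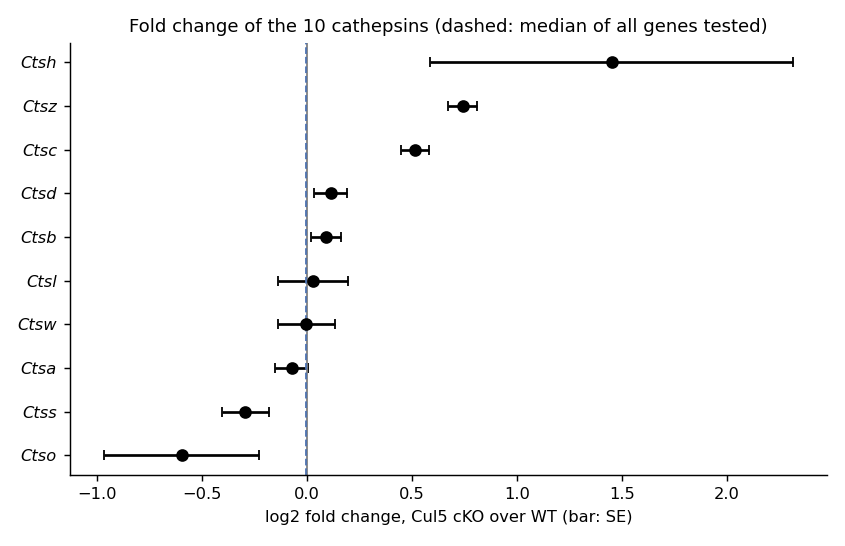
Log2 fold change of the 10 cathepsins (x axis, Cul5 cKO over WT, edgeR fit of 3 against 3 samples) with bars for the SE and a dashed line at the median of all genes tested. Ctsz at 0.74 and Ctsc at 0.51 have narrow bars, and Ctsh at 1.45 has an SE of 0.86.

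Ctsb, Ctss, Ctsl and Ctsh showed smaller differences than Ctsz and Ctsc or none with a fixed sign. Ctsb encodes cathepsin B, which cuts within chains and also removes dipeptides from their C terminus. It was at 171, 158 and 163 CPM in WT and 187, 164 and 173 CPM in Cul5 cKO, and the samples overlapped. Its fitted log2 fold change was 0.09 (SE 0.07). Of its 31-base words 13.0% occur in other genes, 744 of them in Fdft1, which overlaps it on the opposite strand, so some of its counts depend on how kallisto divided reads between the genes.

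Ctss encodes cathepsin S, which cleaves the invariant chain in B cells and dendritic cells and stays active at neutral pH. It was at 41.6, 46.9 and 52.4 CPM in WT and 34.0, 42.1 and 37.7 CPM in Cul5 cKO. The highest Cul5 cKO sample, replicate 2, lay just above the lowest WT sample, replicate 1, and the log2 fold change was -0.29 (SE 0.11). Within each genotype replicate 1 was the lowest sample. Over all alternatives the value stayed below 0, from -0.40 to -0.22. No 31-base word of Ctss occurs in another gene.

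Ctsl, the gene of cathepsin L, an endopeptidase that processes the invariant chain in thymic epithelium, was low. It stood at 6.32, 4.98 and 6.07 CPM in WT and 5.95, 5.87 and 5.78 CPM in Cul5 cKO, and the Cul5 cKO samples lay inside the WT range. The log2 fold change of 0.03 (SE 0.17) had no fixed sign across the alternatives. In WT replicate 3 the estimate rests on 24 counts, and 28.2% of the 31-base words of Ctsl occur in other genes. In the deposited table that sample was the lowest, at 0.83 log2 CPM, against 1.41 to 2.30 in the other 5 samples, and there the Cul5 cKO mean exceeded the WT mean by 0.55, with overlap.

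Ctsh encodes cathepsin H, mainly an aminopeptidase, and was close to the floor of detection. Its counts were 20, 11 and 3 in WT and 6, 33 and 88 in Cul5 cKO. In CPM these are 0.854, 0.476 and 0.759 in WT and 0.261, 1.45 and 3.91 in Cul5 cKO. The Cul5 cKO samples thus ranged from below every WT sample to well above them. Its log2 fold change of 1.45 had an SE of 0.86, and without Cul5 cKO replicate 3 it was 0.32.

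Markers of B cells and dendritic cells followed the order of Ctsh over the 3 Cul5 cKO samples, and those of macrophages and monocytes did not. The 8 B cell markers summed to between 20.3 and 23.9 CPM in WT and to 7.12, 12.8 and 78.8 CPM in replicates 1, 2 and 3 of Cul5 cKO. The 8 dendritic cell markers, 3 of them MHC class II genes, summed to between 17.4 and 21.8 CPM in WT and to 7.64, 38.0 and 134.1 CPM in Cul5 cKO. Cul5 cKO replicate 3 stood apart in both sums, with H2-Aa, an MHC class II chain, at 53.8 CPM against at most 12.3 CPM in the other samples. Cd74, the invariant chain that cathepsins trim, was at 29.8, 32.1 and 34.9 CPM in WT and 14.1, 54.5 and 154.1 CPM in Cul5 cKO.

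Ctsz and Ctsc followed that order only in part. Over replicates 1, 2 and 3 of Cul5 cKO, Ctsz was at 166, 162 and 176 CPM, highest in replicate 3. Ctsc was at 129, 136 and 135 CPM, lowest in replicate 1. In Cul5 cKO replicate 1, with the lowest B cell and dendritic cell sums of all samples, Ctsz was at 166 CPM and Ctsc at 129 CPM, above every WT sample. Ctss, which is also a gene of antigen-presenting cells, was at 37.7 CPM in Cul5 cKO replicate 3, below every WT sample. The 12 macrophage and monocyte markers summed to between 6.40 and 11.1 CPM in WT, with C1qa, C1qb and C1qc at 0 in every sample. In Cul5 cKO replicates 1, 2 and 3 they summed to 5.60, 14.8 and 6.49 CPM, highest in replicate 2. The 7 CD8 and NK cell markers summed to between 10.8 and 17.7 CPM in WT and 10.6 and 23.1 CPM in Cul5 cKO, with Ncr1 at 0, and the 6 erythroid markers to at most 0.897 and 2.67 CPM. The part of other cell types in the Ctsh, Ctsz, Ctsc and Ctss values was not tested.

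**Figure D3:**
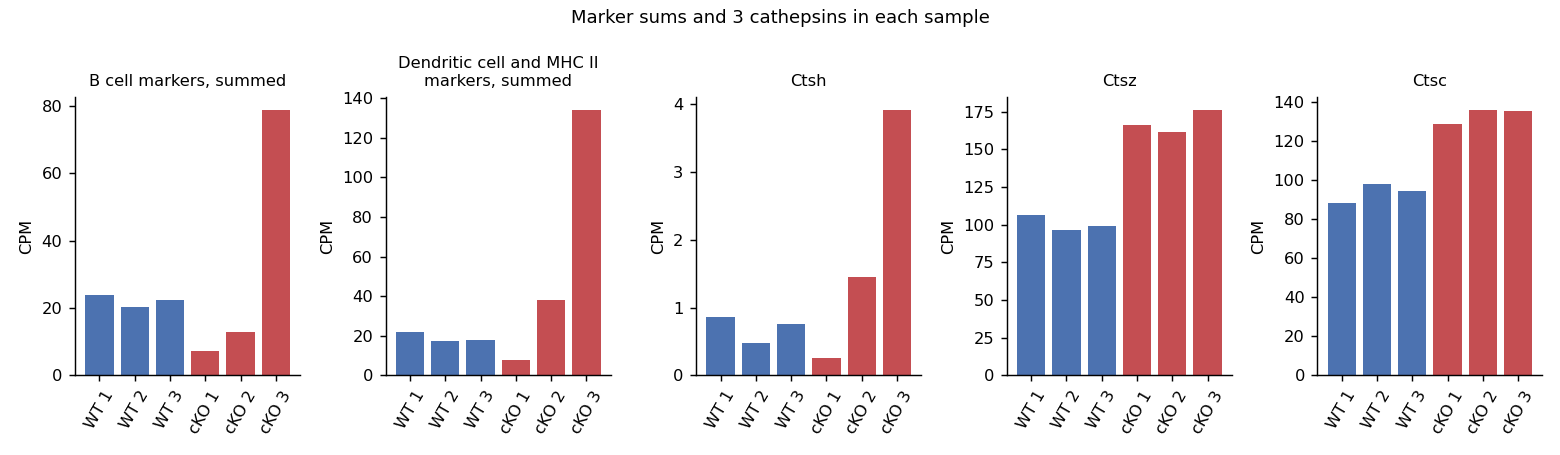
Summed CPM of the B cell and dendritic cell marker lists and CPM of Ctsh, Ctsz and Ctsc (y axes, from 0) in each of the 6 samples (x axis, WT blue, Cul5 cKO red, cKO standing for Cul5 cKO). Both marker sums and Ctsh are lowest in Cul5 cKO replicate 1 and highest in replicate 3, while Ctsz and Ctsc are above WT in all 3 Cul5 cKO samples.

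Ctsw and Ctso are cathepsins about which less is known. Ctsw, or lymphopain, is typical of CD8 T cells and NK cells. In these CD4+ cultures it was at 162, 197 and 181 CPM in WT and 159, 217 and 163 CPM in Cul5 cKO. Replicate 2 was the highest sample in each genotype, and the groups overlapped fully. The log2 fold change was -0.0037 (SE 0.13), with no fixed sign across the alternatives. The CD8 markers Cd8a and Cd8b1 stood at 1.01 to 1.67 CPM and 4.10 to 5.45 CPM in WT, and at 0.565 to 6.27 CPM and 3.73 to 5.38 CPM in Cul5 cKO. The part of such cells in the Ctsw signal was not tested.

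Ctso, which encodes cathepsin O, was low and variable, at 2.82, 5.58 and 6.33 CPM in WT and 2.39, 4.29 and 2.71 CPM in Cul5 cKO. The genotypes overlapped, and replicate 1 was the lowest in each. The log2 fold change was -0.60 (SE 0.37) and ran from -0.91 without WT replicate 1 to -0.31 with the other libraries thinned to the depth of WT replicate 3.

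Ctsd and Ctsa, which are not cysteine proteases, differed by less than 10% in the fit. Ctsd, the main aspartic endopeptidase of the lysosome, was at 106, 107 and 101 CPM in WT and 107, 125 and 107 CPM in Cul5 cKO. The groups did not overlap in CPM, yet the lowest Cul5 cKO sample and the highest WT sample were less than 1 CPM apart. In TPM, and in the deposited table, they overlapped. Ctsd had a log2 fold change of 0.11 (SE 0.08), and without Cul5 cKO replicate 2 it was 0.04. Gm49369, a gene model that overlaps Ctsd on the same strand, contains 33.2% of the 31-base words of Ctsd but took between 0 and 15 counts a sample.

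Ctsa encodes cathepsin A, the carboxypeptidase that also protects β-galactosidase and neuraminidase in the lysosome. It was at 77.0, 71.0 and 71.1 CPM in WT and 71.2, 73.8 and 63.7 CPM in Cul5 cKO. The samples overlapped, and the log2 fold change was -0.07 (SE 0.08). Other genes hold 14.6% of its 31-base words.

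Levels of different cathepsins were compared per length, as the summed TPM of the protein-coding transcripts of each gene, because short non-coding transcripts weigh heavily in TPM. For example, Ctsb-201 held 86.5% of the counts of Ctsb in WT but 46.2% of its TPM. In WT, Ctsw led with 156 ± 19.8 TPM (SD, n = 3), followed by Ctsz with 111 ± 5.39, Ctsd with 75.0 ± 3.80, Ctsc with 59.1 ± 7.48, Ctss with 56.0 ± 5.88, Ctsa with 52.0 ± 2.04 and Ctsb with 42.4 ± 4.07 TPM. Ctsl at 5.80 ± 1.63 TPM, Ctso at 1.67 ± 0.562 TPM and Ctsh at 0.889 ± 0.655 TPM were a step below. The ranges of Ctsc and Ctss, of Ctss and Ctsa, and of Ctso and Ctsh overlapped, and those of the other neighbours in this order did not. Short transcripts annotated as coding weigh in the same way, as with Ctsa-210, at 19.5 TPM on 26.9 counts in WT replicate 3. By leading transcript alone Ctsa-202 was at 33.0, 32.1 and 29.6 TPM in WT, below Ctsb-201 at 46.0, 43.3 and 38.0 TPM. The order of Ctsa and Ctsb therefore depends on the transcripts counted.

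In Cul5 cKO the level of Ctsz, at 184 ± 5.92 TPM, reached that of Ctsw, at 159 ± 28.5 TPM, and their ranges overlapped. This depends on the transcripts counted. With the non-coding transcripts included, Ctsw in Cul5 cKO ran from 212 to 297 TPM, wholly above Ctsz at 178 to 189 TPM. Among protein-coding transcripts Ctsc at 79.7 ± 1.51 TPM lay beside Ctsd at 79.7 ± 7.49 TPM. Ctsa, Ctsb and Ctss followed at 46.8 ± 4.45, 46.3 ± 3.61 and 44.7 ± 4.67 TPM, and each of these overlapped its neighbour. Ctsl, Ctsh and Ctso were again the lowest, at 5.61 ± 2.02, 1.39 ± 1.35 and 1.18 ± 0.388 TPM, of which the last 2 overlapped.

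The 10 genes together had 538, 590 and 552 TPM in protein-coding transcripts in WT and 633, 686 and 627 TPM in Cul5 cKO. Of this sum Ctsz made up 21.7%, 18.8% and 19.2% in WT and 29.2%, 25.9% and 30.2% in Cul5 cKO. The share of Ctsw was 26.0%, 30.1% and 27.1% in WT and 22.4%, 28.0% and 23.0% in Cul5 cKO. On this scale Ctsz had the second highest mean in WT and the highest in Cul5 cKO, whereas over all transcripts Ctsw had the highest mean in both, at 247 and 241 TPM. Every Cul5 cKO sample gave Ctsz a larger share of the protein-coding sum than any WT sample.

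**Figure D4:**
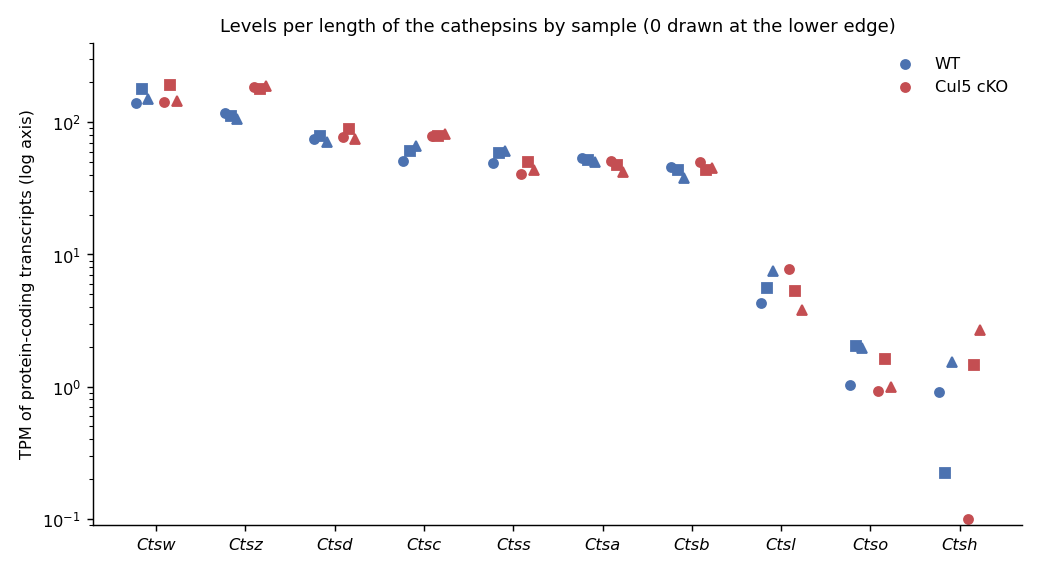
Summed TPM of the protein-coding transcripts of each cathepsin (log y axis) in the 3 WT (blue) and 3 Cul5 cKO (red) samples, ordered by the WT mean, with circles, squares and triangles for replicates 1, 2 and 3 and a value of 0 drawn at the lower edge. Ctsz in Cul5 cKO, at 178 to 189 TPM, lies within the range of Ctsw, and Ctsl, Ctso and Ctsh lie far below the other 7.

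How a gene's counts divide among its transcripts took no part in the choice of the genes, and this share was compared between the genotypes in 17 exact two-sided permutation tests, in which 3 samples against 3 cannot give a p below 0.1. The 17 are not independent, since the leading and the non-coding share of Ctsb, and of Ctso, are complements. Ctsw is given first. Its coding transcript Ctsw-201 held 64.9%, 64.6% and 64.2% of the counts in WT and 66.5%, 66.4% and 67.6% in Cul5 cKO, without overlap. As a share of TPM the same transcript held 62.0%, 63.7% and 61.6% in WT and 65.6%, 63.7% and 66.8% in Cul5 cKO, and there the groups overlapped. The transcripts of Ctsw not annotated as protein coding, which retain introns, held 34.5%, 34.5% and 35.8% in WT and 32.7%, 32.6% and 31.4% in Cul5 cKO. Both comparisons gave an exact p of 0.1, the smallest possible, and 0.34 after Benjamini-Hochberg adjustment, so neither passed a threshold of 0.05. The 2 shares are nearly complements, so they are not separate results. The level of Ctsw itself did not separate the genotypes.

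Ctso-201, the coding transcript of Ctso, held 87.3%, 83.8% and 77.5% in WT and 91.8%, 91.2% and 89.8% in Cul5 cKO (exact p = 0.1, adjusted 0.34, n = 3 each). The non-coding transcripts of Ctsl held 6.97%, 3.47% and 12.9% in WT and 1.92%, 0.916% and 1.03% in Cul5 cKO, with the same exact p. The whole gene took 24 to 148 counts a sample. Of its non-coding transcripts, Ctsl-207 had 10.3 counts in WT replicate 1 and almost none elsewhere, and Ctsl-202 at most 3.95 in a sample. The Ctsl comparison therefore rests on few counts. Again the genotypes did not overlap, but no comparison could pass at this number of samples. The other shares overlapped or rested on 1 library. Ctsd-202 held 66.5% of the Ctsd counts in WT replicate 3, the shallow library, and 98.3% to 99.9% in the other 5 samples.

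The rest of the family was almost silent. Of 13 further cathepsin genes 8 had no count in any sample, and these are members of the cluster expressed in rodent placenta. Ctse, an aspartic protease of immune and gastric cells, was at 2.31, 4.89 and 9.36 CPM in WT and 2.52, 5.08 and 2.93 CPM in Cul5 cKO. Ctsf, a cysteine protease, was at 1.15, 0.606 and 0.759 CPM in WT and 1.91, 1.10 and 1.07 CPM in Cul5 cKO. These were the 2 that passed the filter, and edgeR called neither, with adjusted p of 0.585 and 0.388 and 0 at an unadjusted p under 0.05. Without WT replicate 3 the log2 fold change of Ctse moved from -0.53 to -0.03.

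Ctsg, a serine protease of neutrophil granules, took 0, 2 and 1 counts in WT and 0, 219 and 11 counts in Cul5 cKO. A single library, Cul5 cKO replicate 2, therefore held nearly all of its signal. Ctsk, the collagenase of osteoclasts, had at most 6 counts in a sample, and Cts8 had 2 counts in WT replicate 2 alone.

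Of 125 genes on 9 lists, the 13 further cathepsins and the genes that act around the family, 98 were tested, and 1 was called, against 1.03% of all genes. That gene was Serpinb6b, a serpin of the intracellular clade, on the list of cathepsin inhibitors. It fell from 12.5, 17.2 and 18.2 CPM in WT to 4.39, 5.35 and 5.51 CPM in Cul5 cKO, with a log2 fold change of -1.63 (SE 0.18) and an adjusted p of 0.0159 in edgeR's test. The groups were far apart, and with 1 sample left out the log2 fold change lay between -1.79 and -1.53. The adjusted p became 0.0903 when replicate 2 of WT was left out and 0.0816 when replicate 3 was. It became 0.0566 when replicate 2 of Cul5 cKO was left out, 0.0898 when replicate 3 was, and 0.0586 with the other libraries thinned to WT replicate 3.

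The other 10 inhibitors tested were not called. Cstb, the gene of cystatin B, was at 32.3, 27.2 and 26.8 CPM in WT and 38.0, 35.8 and 35.3 CPM in Cul5 cKO, without overlap (adjusted p = 0.126 by edgeR). Cst7, the gene of cystatin F, was also without overlap in CPM, at 15.9, 20.6 and 19.5 against 20.7, 33.1 and 23.9 CPM, but overlapped in TPM. Serpinb1a was near the floor, with 16, 7 and 0 counts in WT and 50, 54 and 19 in Cul5 cKO. Ctla2a, an inhibitor of cathepsin L-like enzymes from activated T cells, was at 120.3, 66.9 and 86.8 CPM in WT and 164, 98.4 and 95.7 CPM in Cul5 cKO. Serpina3g, a serpin of activated T cells that can inhibit cathepsins, was at 118, 45.2 and 61.0 CPM in WT and 106, 102 and 75.0 CPM in Cul5 cKO. Both were highest in replicate 1 of each genotype, and both overlapped between genotypes.

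Of 12 partner and sorting genes, which deliver and use cathepsins, edgeR called 0 and DESeq2 called 1, Srgn, against 5.36% of all genes by DESeq2. An unadjusted p under 0.05 was found for 2 of the 12, against 21.3% of all genes in the edgeR fit, so the count is near the background. Srgn was at 66.8, 83.8 and 75.9 CPM in WT and 93.8, 175 and 128 CPM in Cul5 cKO (adjusted p = 0.112 by edgeR). In CPM 2 of the 12, Srgn among them, were without overlap higher (16.7%) and 1 lower (8.33%), beside 14% and 13.5% of all genes. Igf2r, the large mannose 6-phosphate receptor, averaged 340.1 ± 2.41 CPM over the WT samples and 316 ± 33.7 CPM over the Cul5 cKO samples. Psap, which encodes the saposin precursor, averaged 265 ± 4.41 and 257 ± 26.2 CPM (SD, n = 3 each). In both the Cul5 cKO samples spread wider than the WT samples, and the groups overlapped.

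edgeR called 0 of the 8 other lysosomal peptidases, 28 hydrolases, 17 lysosomal membrane genes, 16 vacuolar ATPase genes and 4 transcription factors of the lysosome. At an unadjusted p under 0.05 there were 2, 5, 5, 5 and 0, and DESeq2 called 1 peptidase, Napsa, and 1 membrane gene, Mcoln1. Napsa was uneven, with 16, 20 and 2 counts in WT and 7, 208 and 102 in Cul5 cKO, so replicates 2 and 3 carried its rise. Mcoln1 was without overlap in CPM, lower in Cul5 cKO. Over the 98 genes of the 9 lists 24 were under 0.05 unadjusted, or 24.5%, beside the 21.3% of all genes. Tpp1, a tripeptidyl peptidase, averaged 61.3 ± 2.78 CPM over WT and 56.2 ± 3.30 CPM over Cul5 cKO samples (SD, n = 3 each, here and for the genes that follow), and Scpep1, a serine carboxypeptidase, at 24.8 ± 3.69 and 27.2 ± 4.24 CPM. Among the hydrolases Man2b1, a mannosidase, was at 98.9 ± 7.58 and 96.1 ± 9.79 CPM and Gusb, a glucuronidase, at 87.5 ± 2.43 and 101.4 ± 3.31 CPM. Gusb was without overlap, with a log2 fold change of 0.21 (SE 0.06) and an adjusted p of 0.127 by edgeR. Tpp1 was also without overlap, lower in Cul5 cKO.

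Of the membrane and proton pump genes the most abundant are given. Laptm5 was at 741 ± 52.7 and 705 ± 22.6 CPM, and Lamp1, a main glycoprotein of the lysosomal membrane, at 149.7 ± 9.95 and 171 ± 11.9 CPM. The pump subunits Atp6v0c and Atp6v1a were at 192 ± 14.2 and 98.3 ± 5.62 CPM in WT and at 219 ± 13.1 and 109 ± 10.5 CPM in Cul5 cKO. The transcription factor Tfe3, a relative of TFEB, was at 48.0 ± 4.83 and 53.4 ± 7.66 CPM and Zkscan3, a repressor of lysosomal genes, at 45.5 ± 3.30 and 38.9 ± 5.09 CPM. Lamp1 and Atp6v0c were without overlap in CPM. Over the 98 genes the median log2 fold change was 0.05, and 17 genes were without overlap higher (17.3%) and 18 lower (18.4%), beside 14% and 13.5% of all genes. The lists differed in direction, with 7 of 16 vacuolar ATPase genes higher (43.8%) and 1 lower. Of 17 membrane genes 1 was higher and 6 were lower (35.3%). Of 28 hydrolases 3 were higher and 7 lower (25%), and of 8 peptidases 0 were higher and 3 lower (37.5%). These shares were not compared by a test.

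Few of the granule proteases that Ctsc can activate were expressed. Of 9 listed 2 passed the filter, and neither was called by edgeR or DESeq2, with 1 at an unadjusted p under 0.05 (Gzmm). Gzmb was at 4.74, 3.16 and 5.82 CPM in WT and 4.17, 5.04 and 17.1 CPM in Cul5 cKO, so that Cul5 cKO replicate 3 alone stood above WT, and its log2 fold change of 1.0 (SE 0.57) was 0.06 without that library. Gzmm was at 0.555, 0.389 and 0.253 CPM in WT and 0.999, 0.920 and 0.623 CPM in Cul5 cKO, and its log2 difference was 0.93 (SE 0.38), with an adjusted p of 0.223 by edgeR. Its WT replicate 3 value is below the 3-count floor of that library.

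**Figure D5:**
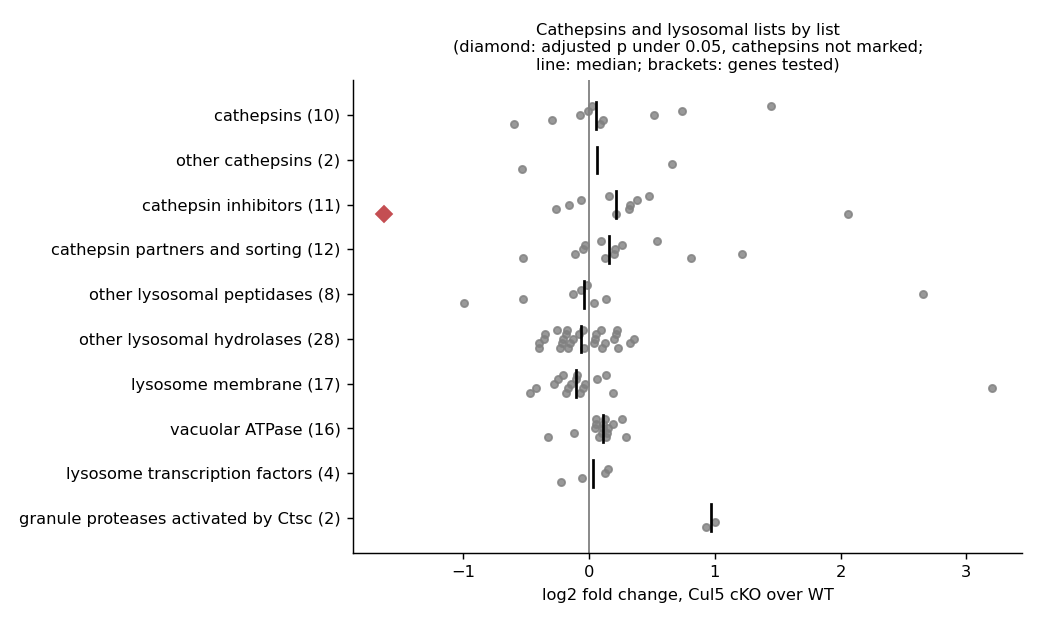
Log2 fold change of each tested gene (x axis, Cul5 cKO over WT) in the cathepsins and the 9 lists of related genes (rows, with the number tested in brackets), with a black line at each median and, in the lists but not among the cathepsins, a red diamond at an adjusted p under 0.05. The single diamond is Serpinb6b at -1.63 among the inhibitors, and most other genes lie near 0.

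The genes whose log2 CPM followed Ctsz most closely over the 6 samples, out of 11615 with a mean of at least 1 CPM, were Polr2l, Crybg1, Ctnnbl1, Egln3 and Napa, with Pearson r between 0.994 and 0.996. With 2 groups of 3, such an r is largely set by the difference between the genotypes, and 4.73% of the genes compared had an r over 0.9. Egln3, a prolyl hydroxylase of the hypoxia response, averaged 73.1 ± 10.1 CPM over the WT samples and 167 ± 7.12 CPM over the Cul5 cKO samples (SD, n = 3 each), while the other 4 had log2 fold changes between 0.15 and 0.30.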

How the data were processed

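RNA of 3 WT and 3 Cul5 cKO Th9 cultures was sequenced by the authors from poly-A libraries as single-end reads of 50 bases. The authors assigned reads to GRCm38 transcripts with kallisto 0.46.2, which divides a read that fits several transcripts, and deposited estimated counts and TPM for 119414 transcripts per sample. The deposited gene-level table holds log2 CPM normalized by TMM with edgeR 3.34.0, and also fold changes and p-values, which were not used. Strandedness of the libraries is not given in the sources used here.

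Estimated counts were summed by gene with GENCODE vM21 (116640 transcripts matched, 97.7%, in 35896 genes, 22400 with a count) and rounded. Genes passing edgeR's default filter (12925) were fitted in R 4.3.3 with edgeR 4.0.16, TMM and its quasi-likelihood test, and p-values were adjusted by the Benjamini-Hochberg method across the whole table. The step was tested on simulated data. Alternatives used DESeq2 1.42.0, limma 3.58.1, library size alone, at least 10 counts in every sample, no filter, counts scaled from TPM, the replicate number as a block and each sample left out. Thinning to WT replicate 3 and replicates 2 and 3 alone were added after seeing the data. Python 3.11.15 with scipy 1.17.1 gave the exact tests and word sharing. Promoter windows are from RefSeq, GRCm38.p6. The active-site pattern was C, 2 residues, C, then W or Y, searched in translated GENCODE coding sequence.

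The members, lists and tests were chosen with earlier results of these data known. Genes are named by a rule: the 10 members, Cul5, other cathepsins with a count, the called and the 2 most abundant tested genes of each list, and the 5 genes most like Ctsz. Srgn, Cst7, Cstb, Serpinb1a and others named with the alternatives, and Cd74, Fdft1, Gm49369 and single markers, were named after their values were seen. With 3 samples a group, precision rests on the spread between samples, and floors cover counting error only.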

Additional observations from a re-analysis of the deposited data

How the results depend on the processing

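The cathepsins were chosen on this contrast, so their calls are counts only and support nothing. Ctsz alone, 1 of 10, was called with counts scaled from TPM and with limma on the deposited table. Leaving out 1 sample gave 0 to 2 cathepsins, 0 to 3 list genes and 2 to 316 genes in all, the fewest without WT replicate 2 or 3 or Cul5 cKO replicate 3. Of all genes, 693 were called with DESeq2, 228 without a filter, 60 with counts scaled from TPM, 42 with limma and 1153 with replicates 2 and 3 alone. List genes called numbered 4 with DESeq2 (Mcoln1, Napsa, Serpinb6b and Srgn), 9 with replicates 2 and 3 alone and 0 after thinning.

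With the replicate block 848 genes were called, 2 cathepsins and 7 list genes (Cst7, Cstb, Ctla2a, Mcoln1, Serpinb1a, Serpinb6b and Srgn). Same-numbered samples deviated together with correlations of 0.37, 0.21 and 0.02, and WT replicate 3 did not correlate best with its own number, so a pairing by number was not established. The weakest of the correlations involves the shallow library, WT replicate 3, and WT replicate 1 lay nearer to Cul5 cKO replicate 1 (SD of the log2 difference 0.454) than to WT replicate 2 (0.501).

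Differences near 0 turned their sign, none of them called. The log2 fold change of Ctsl came to -0.016 with library size alone and -0.29 with counts scaled from TPM, and ran from -0.081 (without WT replicate 2) to 0.12 with 1 sample left out. That of Ctsh came to -0.047 with limma. That of Ctsw came to 0.00040 with 10 counts required, 0.016 without a filter, 0.013 with counts scaled from TPM, 0.035 with limma, 0.0037 with replicates 2 and 3 alone and 0.056 after thinning, and ran from -0.16 (without Cul5 cKO replicate 2) to 0.081 (without Cul5 cKO replicate 1). That of Man2b1 came to 0.022 with limma and 0.057 after thinning, and ran from -0.12 to 0.020 with 1 sample left out. That of Psap ran from -0.12 to 0.025, and that of Atp6v1a came to -0.021 with limma. As a share of TPM in place of counts, the leading transcript held 42.1% of Ctsa, 46.2% of Ctsb, 78.8% of Ctsc, 62.4% of Ctsw and 55.8% of Ctso in WT. Depth limits Ctsh, Ctso and Ctsl most, since WT replicate 3 gave them 3, 25 and 24 counts. The cause of these shifts was not tested.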
